A study of Mus musculus with 8 samples.

Results

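The Id genes *Id1*, *Id2*, *Id3* and *Id4* were followed through the Hic1 lineage of the mouse forelimb, by stage, limb segment and cell type. They were chosen by symbol alone, each symbol matched 1 row of every feature table, and they are 4 of the 28001 features counted. Single-cell RNA sequencing of unique molecular identifiers (UMIs, one per captured transcript) had been run on 8 libraries. In 6 of them tdTomato+ cells had been sorted from forelimbs on each day from E11.5 to E14.5 and then at E16.5, the last in a proximal segment (distal stylopod, proximal zeugopod and elbow) and a distal segment (distal zeugopod and autopod). The other 2, called whole 1 and whole 2 here, are replicates of whole E11.5 limb holding tdTomato+ and tdTomato- cells together.

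The sorted cells came from embryos of the genotype Hic1CreERT2/CreERT2;Rosa26LSLtdTomato/tdTomato on C57BL/6J. A dose of 7.5 mg tamoxifen at E10 was given in all 8 libraries, so no group lacks it. CreERT2 was driven by *Hic1*, and the reporter stays on after recombination, so that the sorted cells are those that had *Hic1* activity around the dose and all their progeny. Forelimbs of several embryos were pooled, and the sort removed cells bearing blood or endothelial surface proteins. Each sorted stage or segment is 1 library, so stages and segments were compared without any test. In addition, E11.5 and E12.5 tissue had been dissociated with another enzyme mix than later tissue, and E14.5 and E16.5 libraries used a later reagent kit. Stage and enzyme mix therefore cannot be told apart from E12.5 to E13.5, nor stage and kit from E13.5 to E14.5.

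Id proteins carry a helix-loop-helix domain for pairing but lack the basic region that contacts DNA. They capture E proteins (the products of *Tcf3*, *Tcf4* and *Tcf12*) and thereby keep these and their tissue-restricted partners off E-box sites. Transcription of Id genes is a well-known immediate response to BMP signalling through Smad proteins, and in many tissues Id genes are high in dividing progenitors and lower in differentiated cells. Limb bud mesenchyme is among the tissues known to express them. The study used Id genes as markers of early clusters on these same libraries, so the direction of their change over time is not independent evidence.

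Of 57469 barcodes, 53085 had at least 3000 UMIs and at most 10% mitochondrial UMIs. The cells kept numbered 3165 to 11109 per library, with 31500092 to 234893903 UMIs. Levels are given as UMIs per 1000000 UMIs (CPM) in the summed cells of a library, with epithelial clusters left out and, in whole limb, mesenchymal clusters alone. Only the end of a transcript is read, so CPM was not divided by length, and levels of different genes were not ranked against each other. Intervals are 95% and cover counting error only. The limb mesenchyme gene *Prrx1* stood between 235 and 702 CPM in all 8 libraries. The *tdTomato* transcript stood at 430 to 1410 CPM in sorted cells, at 3.75 CPM in whole 1 and at 4.33 CPM in whole 2. Few of the whole limb transcripts thus came from the reporter. By the paper, the whole limbs carried the same alleles, and tdTomato+ cells were rare in E11.5 forelimb mesenchyme. Whether the reporter was active in the whole limb embryos was not tested. Summed immune markers stayed at or below 4.35 CPM and endothelial markers at or below 19.6 CPM. Erythroid markers summed to 116 CPM in whole 1, 109 CPM in proximal and 75.7 CPM in distal E16.5 cells, against at most 4.90 CPM elsewhere. Cell barcodes shared by a pair of libraries made up at most 1.04% of the smaller one.

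In GRCm38, *Id1* (ENSMUSG00000042745) lies at chr2:152736251-152737410 on the plus strand, *Id2* (ENSMUSG00000020644) at chr12:25093799-25097140 on the minus strand, *Id3* (ENSMUSG00000007872) at chr4:136143497-136145755 on the plus strand and *Id4* (ENSMUSG00000021379) at chr13:48261228-48266026 on the plus strand. *Id4* overlaps the antisense gene *A330033J07Rik* and the lincRNA *Gm49291*, both on the minus strand. *A330033J07Rik* reached at most 0.413 CPM in any library. *Id1*, *Id2* and *Id3* overlap no other annotated gene.

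Promoter sequence is shown because Id genes are textbook BMP-Smad targets and all 4 were lower at E13.5 than at E12.5. The 250 bases before the RefSeq start were searched on both strands for CCAAT (the CCAAT box), GGCGCC (a GC-rich palindrome bound by BMP Smads) and CANNTG (the E-box), and none of the matches overlapped. Capitals mark the matches. Sequences are from RefSeq, build GRCm38.p6, and are written 5′ to 3′ on the strand of the gene. The stretch of *Id2* is chr12:25096254-25096342, minus strand. It lies within the annotated gene, since a longer transcript starts upstream, and is the part of the window outside annotated exons.
Id2: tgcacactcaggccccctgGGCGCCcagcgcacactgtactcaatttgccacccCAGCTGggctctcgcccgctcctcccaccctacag
The stretch of *Id4* is chr13:48260866-48261115, plus strand, and holds the full window.
Id4: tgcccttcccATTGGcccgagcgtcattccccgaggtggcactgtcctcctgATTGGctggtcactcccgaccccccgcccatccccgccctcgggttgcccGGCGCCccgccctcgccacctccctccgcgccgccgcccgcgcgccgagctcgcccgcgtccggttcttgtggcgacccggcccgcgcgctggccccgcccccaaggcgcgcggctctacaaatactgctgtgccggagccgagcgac

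The *Id2* window held GGCGCC 231 bases and CANNTG 196 bases before the start. It also held CCAAT at 159, 120 and 76 bases, in the 161 exonic bases of the window, which are not printed. The *Id4* window held CCAAT at 240 and 198 bases and GGCGCC at 148 bases. None of these letters occurred in the *Id3* window, which lies wholly within an annotated exon. *Id1* was not in the promoter table. Among 27025 mouse promoters of the same length, 34.5% held CCAAT at least once, 10.5% at least 2 times and 2.98% at least 3 times, 9.54% held GGCGCC and 66.0% held CANNTG. A match describes the letters and says nothing of binding.

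All of the Id genes were abundant in E11.5 and E12.5 sorted cells and stood several-fold lower from E13.5 on, and for each of them the step from E12.5 to E13.5 was the widest between successive stages. *Id1*, a broadly expressed Id gene, stood at 1209 CPM (1197 to 1222) at E11.5 and nearly the same, 1201 CPM, a day later. Its level was 140 CPM at E13.5 and 101 CPM at E14.5, then 109 CPM in the proximal and 226 CPM in the distal E16.5 library. *Id1* thus stood on a high plateau for 2 stages and a low one afterwards, with the distal segment above the other late libraries. *Id2*, known for roles in lymphoid and neural lineages, was at 2027 CPM (2012 to 2043), 1207, 377, 175, 117 and 168 CPM in the same order. *Id2* was lower at each successive stage up to E16.5 proximal. *Id3*, often expressed alongside *Id1*, was at 2218 CPM (2201 to 2234), 2128, 495, 548, 604 and 485 CPM. *Id3* had its high and low plateau like *Id1* but kept the highest late level relative to its start. *Id4*, best known from neural progenitors and bone-forming cells, was at 246 CPM (241 to 252), 214, 70.5, 28.8, 28.7 and 32.7 CPM. *Id4* dropped in both the step to E13.5 and the step to E14.5.

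**Figure D1:**
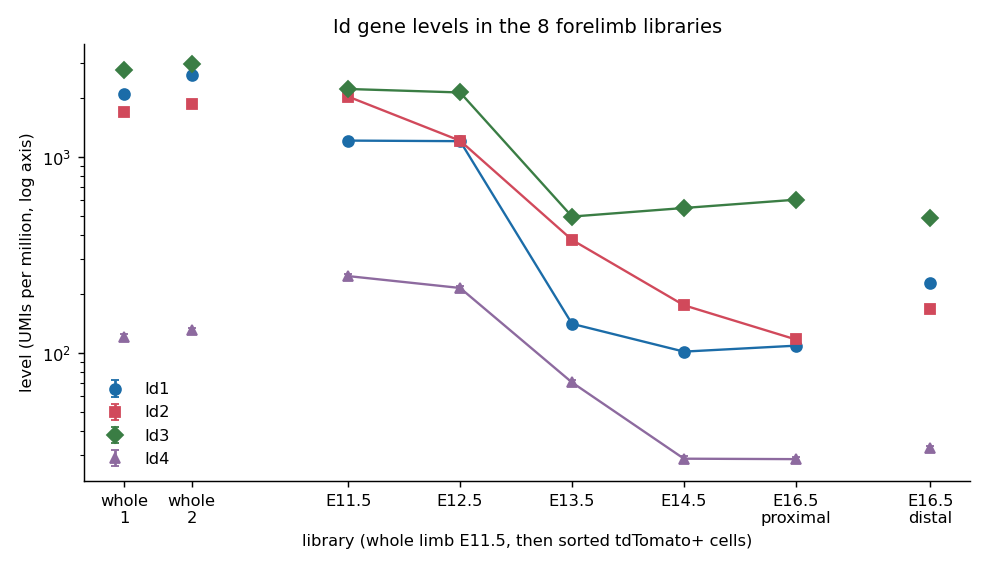
Level of each Id gene in all 8 libraries, in CPM on a log axis, with 95% Poisson intervals that are mostly smaller than the points. *Id1* fell from 1201 CPM at E12.5 to 140 CPM at E13.5, and in whole 1 and whole 2 stood at 2084 and 2611 CPM.

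From E11.5 to E12.5, 0 of 4 Id genes had a ratio of at most 1/2, against 1.06% of the 8733 genes that reached 10 CPM at either stage. The ratio was 0.993 (0.980 to 1.01) for *Id1*, 0.596 (0.589 to 0.602) for *Id2*, 0.960 (0.950 to 0.969) for *Id3* and 0.870 (0.844 to 0.896) for *Id4*. The difference of *Id2* was the widest of the 4, and only 2.90% of genes had a lower ratio.

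From E12.5 to E13.5, 4 of 4 Id genes had a ratio of at most 1/2, against 1.79% of 8707 genes. *Id1* was 8.55-fold lower (8.33 to 8.78) and *Id3* 4.30-fold lower (4.23 to 4.36). *Id2* was 3.21-fold lower (3.15 to 3.26) and *Id4* 3.03-fold lower (2.91 to 3.16). Between 0.0459% and 0.609% of genes had a lower ratio than an Id gene. The 4 ratios stayed at or below 1/2 under all 7 alternatives of filtering and scaling, with *Id1* between 8.22-fold and 8.94-fold lower. The enzyme mix changed at this same step. The sum of 6 immediate early genes, a list chosen after values were seen, went from 1796 CPM at E12.5 to 1375 CPM at E13.5, with 2122 CPM at E11.5. Later it was 906 CPM at E14.5, 1639 CPM in E16.5 proximal and 1983 CPM in E16.5 distal cells. The part of dissociation in the Id ratios was not tested.

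**Figure D2:**
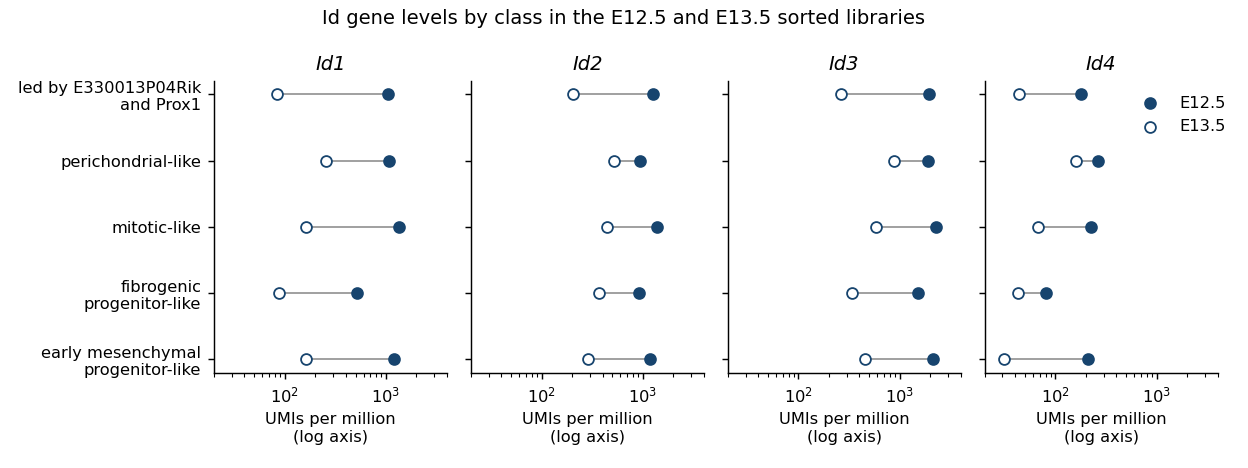
Level of each Id gene at E12.5 (filled points) and E13.5 (open points) within the 5 classes present at both stages, in CPM on a log axis. A line joins the stages of each class. The ratio of E13.5 to E12.5 was at most 1/2 in 5 of 5 classes for *Id1* and *Id3*, in 4 for *Id2* and in 3 for *Id4*.

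The step from E12.5 to E13.5 was also seen inside cell classes, which had been formed by clustering without the Id genes. A class is called "X-like" where marker genes named it and by its leading genes otherwise, and 5 classes had at least 50 cells at both stages. *Id1* was 4.15-fold lower in perichondrial-like cells (1059 to 255 CPM) and 12.5-fold lower in an unnamed class led by *E330013P04Rik* and *Prox1* (1056 to 84.3 CPM). These were the extremes, and the other classes lay between them. *Id2* was 1.83-fold to 6.17-fold lower, *Id3* 2.14-fold to 7.30-fold and *Id4* 1.66-fold to 6.82-fold. The share of all genes that were lower inside every class is not given here. For each gene the least drop was in perichondrial-like cells. This class raised *Dkk3*, *Sox5* and *Sox6*, 3 of its 8 markers, and none of the osteogenic ones, and the cartilage gene *Matn4* was among its leading genes. When cells were named one by one, the E13.5 cells called chondrocyte (1236 cells) had the highest levels for all 4 genes too, 271 CPM of *Id1*, 510 of *Id2*, 904 of *Id3* and 166 of *Id4*. The early mesenchymal progenitor-like class went from 2609 to 263 cells at this step, and 2343 and 246 of them lay in the same cluster.

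From E13.5 to E14.5, *Id2* (ratio 0.464) and *Id4* (0.408) had a ratio of at most 1/2, 2 of 4 against 5.78% of 8799 genes, while *Id1* was at 0.721 and *Id3* at 1.11. The median of all genes fell by 0.18 on the log2 scale at this step. With trimmed-mean (TMM) scaling the ratio of *Id2* was 0.544, which leaves *Id4* alone at or below 1/2. From E14.5 to E16.5 proximal no Id gene reached 1/2, against 5.77% of 8542 genes, and the ratios were 1.07 for *Id1*, 0.669 for *Id2*, 1.102 for *Id3* and 0.995 for *Id4*. Between the ends of the course, E11.5 and E16.5 proximal, *Id2* was 17.3-fold lower (17.1 to 17.6), *Id1* 11.1-fold, *Id4* 8.59-fold and *Id3* 3.67-fold. That is 4 of 4 at or below 1/2 against 29.5% of 9180 genes, whose median fell by 0.50 on the log2 scale, compared with -4.12 for *Id2*, -3.48 for *Id1*, -3.10 for *Id4* and -1.88 for *Id3*. Since *Id3* declined least, its share of all Id UMIs went from 38.9% at E11.5 to 70.4% at E16.5 proximal, and that of *Id2* from 35.6% to 13.6%.

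To compare single cells across depths, each cell was thinned to 3000 UMIs. *Id3* was detected in 96.2% of E11.5 cells, 96.7% of E12.5 cells and 56.6% of E13.5 cells, then in 56.5% at E14.5 and in 64.8% of proximal and 59.5% of distal cells at E16.5. *Id1* was detected in 87.8%, 88.7%, 27.7%, 20.7%, 20.8% and 33.9% of cells in the same order. At this depth both shares dropped in the step to E13.5, and a lower level in each cell would lower the share as well. *Id2* was detected in 94.6%, 90.1%, 52.3%, 33.9%, 24.3% and 34.1% of cells. *Id4* was detected in 47.6%, 42.6%, 17.0%, 7.57%, 7.77% and 8.70%. Without thinning, *Id3* was detected in 73.7% of E13.5 cells. Unthinned shares at the ends of the course, E11.5 and E16.5 proximal, were 97.1% and 52.3% for *Id1*, 98.7% and 59.7% for *Id2*, 99.3% and 92.6% for *Id3* and 75.01% and 31.0% for *Id4*. As a mark for free RNA, the epithelial-like cells at E16.5 proximal, of median depth 46140.5 UMIs, had *Id1* in 8.20%, *Id2* in 2.95%, *Id3* in 30.7% and *Id4* in 3.11% of thinned cells. Epithelial cells are not known to lack Id genes, so no class gave a clean background.

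**Figure D3:**
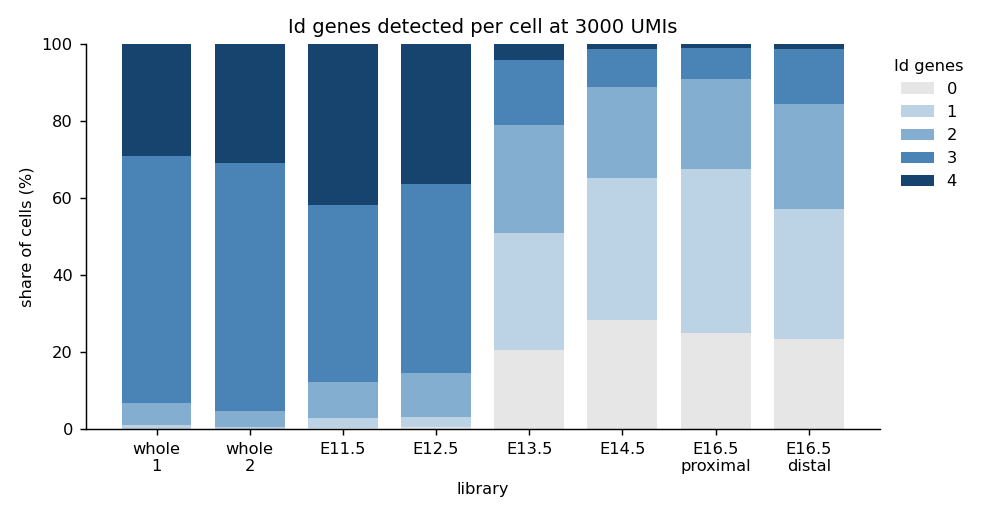
Percent of cells in each library with UMIs of 0, 1, 2, 3 or 4 Id genes, after thinning to 3000 UMIs. Cells with all 4 made up 41.7% at E11.5, 36.4% at E12.5 and 4.12% at E13.5.

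Cells with all 4 Id genes were 41.7% of the E11.5 library (39.98% to 43.4%) and 36.4% of the E12.5 library. That share was 4.12% at E13.5 (3.63% to 4.64%) and 1.21% at E14.5, then 0.963% of proximal and 1.41% of distal E16.5 cells. Cells with none went the other way, from 0.411% and 0.530% at the first 2 stages to 20.6% at E13.5 and 28.4% at E14.5, and were 25.02% and 23.5% in the E16.5 segments. Whole limb resembled early sorted cells, with all 4 in 29.0% and 30.8% of cells and none in 0.197% and 0.113%.

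At E11.5, sorted cells were compared with whole limb by edgeR's quasi-likelihood test on summed counts, with 15065 genes tested in 3156 sorted, 5085 whole 1 and 5331 whole 2 cells of mesenchymal clusters. The 2 whole limb libraries gave the only residual degree of freedom, and the lone sorted library is assumed to vary as they do. Nothing in the sources says that the whole limb replicates are separate litters, so p-values rest at most on the spread between these libraries. The test draws the spread of each gene toward a trend over all genes. The SE and p-value of a gene therefore do not measure its own spread alone. *Id1* stood at 1213 CPM in sorted cells, 2084 in whole 1 and 2611 in whole 2. The difference in *Id1* was -1.14 ± 0.15 (log2, SE, adjusted p = 9.3e-13 by edgeR). *Id3* stood at 2218 CPM in sorted cells against 2763 and 2963, a difference of -0.55 ± 0.15 (adjusted p = 0.00115 by edgeR). *Id1* and *Id3* were thus lower in sorted cells, 2 of 4 against 26.5% of all genes. The adjusted p-values of *Id1* and of *Id4* (below) were far larger without the filter on low counts and by DESeq2, though still under 0.05. Without the filter on low counts *Id3* no longer passed, at -0.56 (adjusted p = 0.0509 by edgeR).

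*Id4* was higher in sorted cells, at 247 CPM against 121 and 131, a difference of 0.79 ± 0.093 (adjusted p = 5.2e-16 by edgeR), 1 of 4 against 26.8% of all genes. *Id2* stood at 2029 CPM against 1701 and 1860, and its fitted difference of 0.0075 ± 0.14 did not pass (adjusted p = 0.97 by edgeR). The sorted CPM of all 4 genes lay outside the range of the whole limb pair. How many of all genes do so is not given here, so this sets the Id genes apart from no others. By total UMIs alone the log2 differences were -0.95 for *Id1*, 0.19 for *Id2*, -0.37 for *Id3* and 0.97 for *Id4*, with a median over genes of 0.088. The fitted difference of *Id2* was within its error of 0 and took either sign among the alternatives. The whole limb replicates differed from each other 1.25-fold in *Id1*, more than 97.1% of 7983 genes, and 1.07-fold to 1.09-fold in the others.

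By class at E11.5, *Id1* and *Id4* did not overlap between sorted and non-myogenic whole limb cells. How many of all genes do the same is not given here, in a comparison where 53.3% of all genes passed. *Id2* did overlap, with 1801 and 2272 CPM in the sorted classes and 1372 to 2451 CPM in whole 1. *Id3* did too, with 2087 and 2334 CPM in the sorted classes and 2239 CPM in the lowest class of whole 1. Both sorted classes, at 1174 and 1239 CPM of *Id1*, lay below the 8 non-myogenic classes of whole 1 (1577 to 2480 CPM) and of whole 2 (2059 to 3104 CPM). Myogenic-like cells were lower than those 8, at 1118 CPM in whole 1 and 1401 CPM in whole 2. For *Id4*, both sorted classes (244 and 255 CPM) lay above all 9 classes of whole 1 (79.2 to 187 CPM) and of whole 2 (79.4 to 217 CPM). Distal mesenchyme-like cells, the largest whole limb class, were near the bottom of that range at 81.8 and 88.3 CPM. At E11.5 proximal cells were called by their UMIs and not by dissection. They had no UMIs of *Hoxa13*, *Hoxd13*, *Hoxd12*, *Lhx2* or *Lhx9* and some of *Meis1* or *Meis2*. Such a call depends on depth, and these cells held 8988100 UMIs in the sorted library, 4079817 in whole 1 and 4488150 in whole 2. With proximal cells alone on both sides (788 sorted, 575 and 641 whole), *Id1* kept -1.06 and *Id3* -0.44 (adjusted p = 0.0077 by edgeR), whereas *Id4* was at 0.25 and no longer passed (adjusted p = 0.085 by edgeR). Cycling cells made up 38.9% of sorted cells and 60.5% and 59.3% of whole limb cells, and without them the differences were -1.06 for *Id1*, -0.08 for *Id2*, -0.52 for *Id3* and 0.57 for *Id4*, with the same genes past the threshold.

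The genes Id proteins act through and respond to were read from 8 lists. Of the E proteins, *Tcf12* (-0.57) and *Tcf3* (-0.26) were lower in E11.5 sorted cells than in whole limb and *Tcf4* did not pass, 2 of 3 in all. Of 18 tested tissue-restricted and Hes-type bHLH factors, 6 were higher and 6 lower. *Scx*, a tendon factor, was higher by 1.74 and *Hes1*, a Notch target, by 0.52, while *Twist1*, a limb mesenchyme factor, was at -0.49. BMP feedback and target genes were lower in 5 of 6, with *Msx1* at -3.80 and *Msx2* at -3.82, both homeobox genes of distal mesenchyme, *Bambi*, a decoy receptor, at -1.75, and the inhibitory Smads *Smad6* and *Smad7* at -0.73 and -0.68. *Atoh8*, a bHLH target of BMP signalling, was the exception at 0.52. These values passed at an adjusted p below 0.05 by edgeR unless stated, in a comparison where 53.3% of all genes did.

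Of 6 tested BMP ligands, 3 were higher and 2 lower, among them *Gdf5*, a joint gene, at 1.47, *Bmp4* at 0.81 and *Bmp2* at -0.97. Of 6 BMP receptors 1 was higher and 3 lower, and of 4 BMP Smads 2 were lower. Of 6 antagonists, 3 were higher and 2 lower, with *Chrd* at 2.98, *Fst* at 1.52 and *Grem1* at -1.53. CDK inhibitors, which block the cell cycle and some of which E proteins activate in other systems, split 2 higher to 2 lower of 5. Beside these counts, 26.8% of all genes tested were higher and 26.5% lower.

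**Figure D4:**
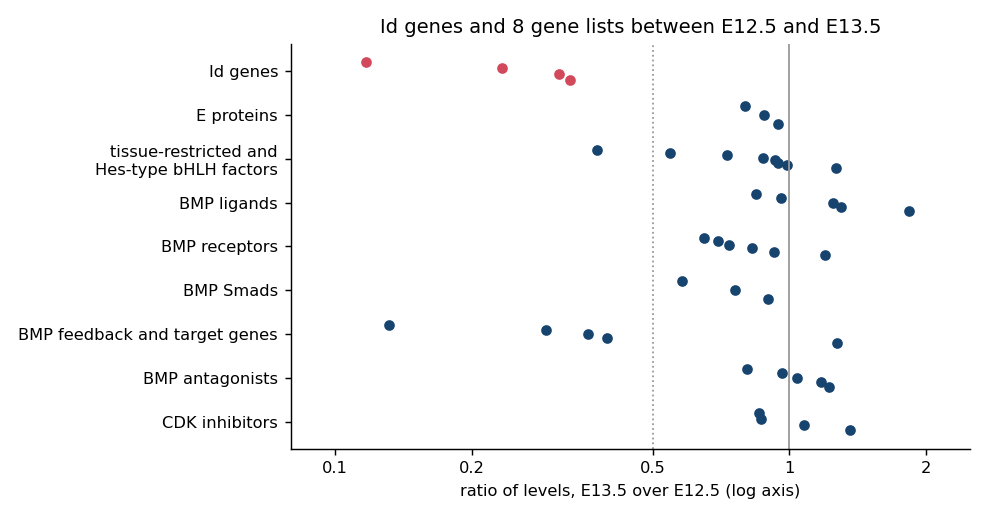
Ratio of E13.5 to E12.5 for the Id genes and for each member of 8 gene lists that reached 10 CPM at either stage, on a log axis, 1 point a gene. The 4 Id genes lie at or below 0.330, and 4 of 5 BMP feedback and target genes lie below 1/2.

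At the step from E12.5 to E13.5, BMP feedback and target genes were the list with the most members beside the Id genes at or below 1/2, 4 of 5 against 1.79% of all genes. *Smad7* went from 197 to 57.4 CPM and *Smad6* from 42.9 to 15.4 CPM. *Atoh8* went from 42.0 to 5.53 CPM and *Msx1* from 11.9 to 4.69 CPM. *Bambi* was the exception, with 47.6 and 60.5 CPM, and *Msx2* was under 10 CPM at both stages. At other steps this list and the Id genes differed: 2 of 6 of its members (*Msx1* and *Msx2*) were at or below 1/2 from E11.5 to E12.5, *Msx1* was at or above 2 from E13.5 to E14.5, and 2 of 4 (*Smad6* and *Msx1*) were at or below 1/2 from E14.5 to E16.5 proximal. None of the E proteins (0 of 3), ligands (0 of 5), receptors (0 of 6), BMP Smads (0 of 3), antagonists (0 of 5) or CDK inhibitors (0 of 4) reached 1/2, and of the bHLH factors *Tcf15*, a paraxial mesoderm gene named here after its values were seen, did (1 of 8). The median ratio was 0.360 for the feedback list, 0.878 for E proteins and 0.760 for BMP Smads.

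By E16.5 proximal, 5 of 6 feedback and target genes were at or below 1/2 of E11.5, as were 29.5% of all genes, and *Tcf3* was the 1 E protein of 3, at 333 and 93.6 CPM. Of 9 bHLH factors, 5 were at or below 1/2 and 2 at or above 2. Of 5 CDK inhibitors 3 were at or above 2, against 12.7% of all genes. *Cdkn1c* went from 1334 to 5839 CPM, *Cdkn1a* from 11.7 to 94.3 CPM and *Cdkn2c* from 3.33 to 22.3 CPM. The other 2, *Cdkn1b* and *Cdkn2d*, did not reach 2. At the step to E13.5 *Cdkn1c* and *Cdkn1a* had not moved by 2 and *Cdkn2c* was under 10 CPM.

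Differences between classes of 1 library were set out by highest over lowest class of at least 50 cells. At E11.5 the pair of sorted classes stayed within 1.24-fold for every Id gene, 0 of 4 at 2 or more against 3.5% of genes. At E12.5 *Id1* (2.58-fold) and *Id4* (3.25-fold) reached 2, against 26.2% of genes, and fibrogenic progenitor-like cells were lowest for all 4. Other clusterings put other classes lowest, such as perichondrial-like cells for *Id1*, *Id2* and *Id3* at resolution 0.5. At E13.5, 4 of 4 reached 2, against 20.7% of genes, and perichondrial-like cells were highest for each, with 255 CPM of *Id1*, 514 of *Id2*, 883 of *Id3* and 159 of *Id4*. At E14.5 *Id3* (2.03-fold) and *Id4* (2.10-fold) reached 2, against 24.6% of genes. These counts depended on the clustering. At resolution 0.5 no Id gene reached 2 at E14.5 (1.44-fold to 1.86-fold), and *Id2* did not at E13.5 (1.64-fold). At resolution 2 every Id gene reached 2 at E14.5 (3.20-fold to 11.7-fold). With cells named one by one, every Id gene did at E14.5 (5.49-fold to 6.70-fold) and none at E12.5 (1.22-fold to 1.52-fold). *Id2* at E13.5 was then at 1.79-fold. At resolution 1, used for the classes here, mitotic-like cells were highest for *Id1*, *Id2* and *Id3* at E11.5 and E12.5. Perichondrial-like cells took that place at E13.5.

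At E16.5 proximal, 4 of 4 reached 2, against 47.3% of genes. *Id1* was highest in chondrocyte-like cells (220 CPM) and lowest in fibroblast-like cells (40.4 CPM). *Id2* was highest in dermal fibroblast-like cells (288 CPM) and lowest in pericyte-like cells (41.6 CPM). *Id3* was highest in tenocyte-like cells (836 CPM), with an interval overlapping that of chondrocyte-like cells (830 CPM), and lowest in fibroblast-like cells (261 CPM). *Id4* was highest in chondrocyte-like cells (61.9 CPM) and lowest in tenocyte-like cells (11.2 CPM). No class was highest for every Id gene, and in this clustering tenocyte-like cells sat at opposite ends for *Id3* and *Id4*. The highest class for *Id3* depended on the clustering. Chondrocyte-like cells were highest at resolution 0.5 (829 CPM), and pericytes when cells were named one by one (997 CPM). At resolution 0.5 the range of *Id3* stayed under 2 (1.86-fold).

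At E16.5 distal, 4 of 4 reached 2, against 56.7% of genes. *Id1* was highest in chondrocyte-like cells (617 CPM), and perichondrial-like cells were next at 574 CPM. Perichondrial-like cells were highest for *Id2* (423 CPM) and *Id3* (1146 CPM) in this clustering. At resolution 0.5 chondrocyte-like cells were highest for both. With cells named one by one, dermal fibroblasts were highest for *Id2* (317 CPM) and pericytes for *Id3* (977 CPM). *Id4* was highest in an unnamed class led by *Grin2a* and *Dkk2* (57.7 CPM), with an interval that overlapped the next class, and lowest in tenocyte-like cells (3.62 CPM). Tenocyte-like cells were thus lowest for *Id4* in both segments. In whole limb at resolution 1, myogenic-like cells were lowest for *Id1* and for *Id4* in both replicates. At that resolution 2 of 4 genes reached 2 in each replicate, against 36.1% and 35.5% of genes.

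Between the E16.5 segments, *Id1* was 2.08-fold higher in the distal library (2.05 to 2.12), 1 of 4 at or above 2 against 3.77% of 8360 genes, and 1.90-fold with TMM scaling. The ratio was 1.44 for *Id2* (1.41 to 1.46), 0.803 for *Id3* (0.796 to 0.811) and 1.14 for *Id4* (1.098 to 1.18), and no Id gene was at or below 1/2, against 2.05% of genes. *Id3* thus lay on the other side from *Id1*. The median over all genes was 0.087 on the log2 scale. The counting software also differed, with Cell Ranger 3.0.2 for the proximal and 6.0.1 for the distal library. Segment and software version therefore cannot be told apart.

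**Figure D5:**
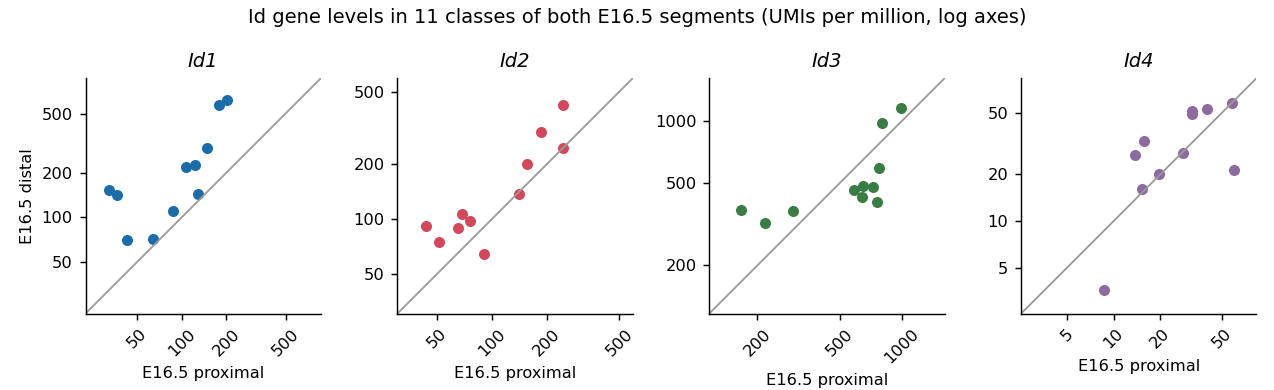
Level of each Id gene in E16.5 distal against E16.5 proximal cells for each of the 11 classes found in both segments, in CPM on log axes, with the line of equal levels. All 11 classes lie above the line for *Id1*, and 5 lie above and 6 below for *Id3*.

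For these classes the 2 segments were clustered together, again without the Id genes. *Id1* was higher in distal cells in 11 of 11 classes, from 1.11-fold in tenocyte-like cells (64.1 and 71.0 CPM, with an interval that includes 1) to 4.77-fold in fibroblast-like cells (32.1 and 153 CPM). Chondrocyte-like cells had 202 CPM proximal and 617 CPM distal, and perichondrial-like cells 179 and 574 CPM. In several classes, among them fibroblast-like, chondrocyte-like, dermal fibroblast-like and distal mesenchyme-like cells, the segments lay largely in different clusters, so these ratios also compare unlike cells. Within the 13 single clusters that held at least 50 cells of each segment, *Id1* was higher in distal cells in 13, by 1.11-fold to 3.84-fold, and by 2 or more in 4. *Id2* was higher in 9 and lower in 4 of these clusters, *Id3* higher in 4 and lower in 9, and *Id4* higher in 7 and lower in 6. The classes and clusters come from the same pair of libraries and are no replicates. How many of all genes are higher in distal cells in every class or cluster is not given here. These counts therefore set *Id1* apart from no others.

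Among the listed genes, *Bmp4* stood at 17.4 CPM proximal and 49.95 CPM distal, *Smad7* at 40.6 and 100.05 CPM and *Msx1* at 2.25 and 16.2 CPM. The BMP receptor *Bmpr2* (52.6 and 112 CPM) and *Hand2*, a posterior limb factor (29.0 and 64.4 CPM), also had ratios above 2. *Fst*, an activin and BMP antagonist, was lower in distal cells, at 151 and 71.3 CPM. *Cdkn1c* stood at 5839 and 3092 CPM, a ratio of 0.529.

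Cells were also split by division, with a cell called cycling at 3 or more mitotic markers after thinning. *Id1*, *Id2* and *Id3* were each higher in cycling cells in 8 of 8 libraries, with ratios of 1.06 to 1.49 for *Id1*, 1.04 to 1.504 for *Id2* and 1.09 to 1.56 for *Id3*. These calls rest on counting intervals, which exclude 1 even at small ratios. The share of all genes higher in cycling cells is not given here. *Id4* was higher in 2 libraries and lower in 3 by intervals that exclude 1, with ratios from 0.809 in whole 1 to 1.08 at E11.5. The step to E13.5 was present on both sides of the split. *Id1* went from 1351 to 162 CPM in cycling cells and from 1141 to 134 CPM in the others. The share of cycling cells was 21.7% at E12.5 and 17.4% at E13.5.

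Finally, genes were ranked by Pearson's r of log2 levels with each Id gene over 55 pools (a class in a library) and 6368 genes, as a description only, since pools share libraries. *Id1* was most like *Id3* (0.950), *Casc3* (0.946), an exon junction gene, and *Pum2* (0.944), an RNA-binding repressor. *Id3* was most like *Yaf2* (0.950), a Polycomb subunit, *Id1* and *Id2* (0.922). *Id2* was most like *Papola* (0.958), a poly(A) polymerase, *Ptbp2* (0.953), a splicing regulator, and *Pde7a* (0.950), a cAMP phosphodiesterase. *Id4* stood further off, with *E2f5* (0.880), *Peli1* (0.880) and *Snai1* (0.878) nearest and 0.764 with *Id3*. *Snai1*, a zinc finger repressor that is also a marker of the early progenitor class here, stood at 414 CPM at E11.5, 355 CPM a day later and 45.4 CPM at E13.5, with 33.0 to 33.7 CPM in the later libraries. Most of the other genes changed less from E12.5 to E13.5, such as *Papola* (251 and 199 CPM), *Pum2* (134 and 102 CPM) and *Peli1* (184 and 123 CPM).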

How the data were processed

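Raw UMI counts per gene and barcode were used as deposited: the authors aligned reads to a modified mm10 reference with Cell Ranger (per the file headers 3.0.2 for 5 sorted libraries, 6.0.1 for E16.5 distal, none named for whole limb). The strand setting is not given in the sources used here. Groups came from the labels. The Id genes and gene lists were chosen with earlier results of these data known.

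Cells with at least 3000 UMIs and at most 10% mitochondrial UMIs were kept. Clusters used 2000 variable genes without Id genes, 50 principal components, 25 neighbours and Leiden resolution 1 (scanpy 1.11.5, igraph 0.11.9), and were named from markers, with 50 cells needed for a class. Ratios between single libraries carry exact binomial intervals, and CPM exact Poisson intervals. A gene was called at a ratio of at least 2, or at most 1/2, with 10 CPM in the higher library (mitochondrial, globin, sex-linked and added sequences left out). E11.5 was tested with edgeR 4.0.16 (quasi-likelihood, TMM, adjusted p below 0.05), with DESeq2 1.42.0 and limma-voom 3.58.1 as alternatives. On simulated counts of that comparison with 200 genes changed 4-fold, edgeR recovered 91.5%, DESeq2 77% and limma-voom 93.5%. False calls numbered 9, 3 and 16 in the same order. The Id genes differed by less than 4-fold at E11.5, and recovery of such smaller differences was not simulated. Genes named are the Id genes, members of the lists (of the bHLH list the 6 with the highest CPM at E11.5), and for each Id gene the 3 with the highest Pearson's r of log2(CPM + 1) over pools of at least 50 cells, among genes at 50 CPM or more in a pool. A doublet caller (Scrublet) marked under 0.5% of cells in 7 libraries and was not relied on. Intervals cover counting error only.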

Additional observations from a re-analysis of the deposited data

How the results depend on the processing

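No paired analysis was possible because each sorted stage or segment is 1 library, to which the labels give no replicate number, so that fewer than 2 numbers are shared with whole limb. Alternatives were 5% mitochondrial UMIs, 5000 UMIs, thinning, leaving out cycling cells, other cells or scalings, other tools and other clusterings. Leaving out the cells with the top doublet scores was chosen after seeing the data, in place of the planned removal of called doublets, which was not run because the caller's threshold failed. At E11.5, 8033 genes passed, against 3175 with proximal cells alone, 4363 without a filter on low counts and 4861 by DESeq2. *Id2*, which passed in none of these, changed sign at -0.0509 (thinned), -0.0781 (no cycling cells), -0.3114 (proximal cells), -0.0052 (no filter), -0.0063 (DESeq2 size factors in edgeR), -0.0063 (DESeq2) and -0.0739 (without whole 1). *Id3* lost its call without the filter (-0.5616, adjusted p = 0.0509 by edgeR) and *Id4* with proximal cells alone (0.25, adjusted p = 0.0851 by edgeR). Without whole 1 or whole 2, which leaves 1 library a side and no test, *Id1* was at -1.31 and -0.96, *Id3* at -0.62 and -0.49, *Id4* at 0.72 and 0.86 and *Id2* at -0.0739 and 0.0793. With TMM scaling, the count of Id genes at or below 1/2 from E13.5 to E14.5 was 1 and not 2, and that at or above 2 in E16.5 distal was 0 and not 1. The count of gene and library pairs with a 2-fold range of classes was 16 to 23 over the other clusterings, against 20 of 32. No ratio between stages or segments moved by over 1.5-fold in the 7 or 8 alternatives run for it. Ratios near 1 changed side, namely *Id1* and *Id3* from E11.5 to E12.5 in 1 of 7 and, from E14.5 to E16.5 proximal, *Id1* in 1 and *Id4* in 2 of 7. The cause of these shifts was not tested. Each stage and segment is 1 library, so spread between embryos could not be measured.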
